A study of Mus musculus with 6 samples.

Results

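The genes described here are 31 genes of the lysosome, out of 26264 genes in the deposited expression table of HSCs from WT and *Irf1-/-* mice. They were chosen by name as well-known hydrolases, membrane proteins and transcriptional regulators of this organelle, and all 31 were found in the table by symbol. By role they are 11 glycosidases, 1 sulfatase, 3 lipid hydrolases and 6 proteases (21 hydrolases together), 3 lipid-binding cofactors, 5 membrane proteins and 2 regulators of the TFEB family. Bulk RNA-seq had been performed to learn how the transcriptome of HSCs differs when the transcription factor IRF1 is absent. The *Irf1-/-* group was 3 libraries from untreated, 8-week-old female mice of the strain B6.129S2-Irf1 tm1Mak/J, in which the targeted allele is carried in every cell of the body, so that blood-forming and other cells both lack the protein. The WT group was 3 libraries from untreated 8-week-old female C57Bl/6 mice without that allele. Each library was made from a small number of HSCs sorted from the bone marrow of a single mouse, and the libraries of each genotype are numbered 2, 3 and 4. Values of single libraries are given in that order throughout. The labels do not say whether a number links a WT mouse to an *Irf1-/-* mouse.

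Lysosomes are acidic compartments in which proteins, glycans, lipids and nucleic acids delivered by endocytosis or autophagy are broken down by soluble hydrolases. Heavily glycosylated membrane proteins protect and equip the organelle, and the transcription factors TFEB and TFE3 bind a short promoter element shared by many lysosomal genes and raise their transcription when they enter the nucleus. In HSCs, lysosomes are known for their part in quiescence, in which they are large and slowly degrading, and in the clearance of mitochondria and other cargo.

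Expression is given as normalized counts, that is, reads per gene divided by a size factor for the library. Reads on genes numbered 43138521, 57281017 and 45129929 in *Irf1-/-* libraries and 59658080, 45332573 and 43267486 in WT libraries. Each of the 31 genes had between 312 and 45776 reads in every library. Because the libraries carry no molecular identifiers, the read numbers speak to counting error only. For genes with few reads or little spread, the spread within a genotype can be no larger than that error. Examples are *Scarb2* and *Ctsh*, and *Gla* among WT libraries only. The median coefficient of variation of the 31 genes was 7.05% among WT and 6.81% among *Irf1-/-* libraries.

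*Irf1* itself had normalized counts of 9267, 9524 and 9287 in *Irf1-/-* libraries and of 10122, 11120 and 12057.5 in WT libraries. All 3 *Irf1-/-* values lay below all 3 WT values, at 84.3% of the WT mean (log2 fold change −0.24 with an SE of 0.088; adjusted *P* = 0.170 in limma; *P* = 0.1 in an exact permutation test, for which 3 against 3 libraries allow no smaller value). Gene-level counts do not show which exons the reads came from, so the level of a disrupted gene that is still transcribed does not check the labels. Of 16 interferon-responsive genes, 13 had an adjusted *P* under 0.05 (limma) and were lower in *Irf1-/-* HSCs, where 1.49% of all tested genes were. Summed over all 16 genes, counts were 50914, 52490.0 and 49609.8 in *Irf1-/-* and 101698, 117869 and 101626 in WT libraries. These sums separated the libraries by their labelled genotype.

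All 12 HSC marker genes examined were measured in every library, and *Kit*, the stem cell factor receptor, was the most abundant with means of 82175 (*Irf1-/-*) and 82582 (WT). Among tested genes, WT replicate 4 stood apart from the other libraries in 5 transcripts of maturing neutrophils (*Ngp*, *Ltf*, *Camp*, *S100a8* and *S100a9*). It did not in *Prtn3*, *Mpo* or *Elane* of the same marker list. *Ly6g* of that list, too low to be tested, was also highest there (46.3, against 1.07 in *Irf1-/-* replicate 2 and 0 in the other libraries). *Ngp*, a granule protein gene, had 2535 normalized counts in WT replicate 4 and between 24.8 and 126.6 in the other libraries, and *Ltf*, which encodes lactoferrin, had 2032 against 28.2 to 63.96. The values of *Ctsh*, *Gm2a* and *Psap* and the median of the 31 genes are therefore given with and without it, as are some values that moved when it was left out.

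Levels of different genes were compared as normalized counts per kilobase of the longest annotated transcript, averaged over the WT libraries. On this scale 29 of the 31 genes lay above the median of the 16371 tested genes with a known length, and 8 lay above the 90th percentile. *Ctsd*, which encodes the aspartic protease cathepsin D, had the highest level (16281 ± 838 per kilobase, SD, n = 3). It was followed by *Lamp1*, a major glycoprotein of the lysosomal membrane (8987 ± 809.9), *Ctsz*, a cysteine carboxypeptidase (6727 ± 238), and *Gaa*, the acid α-glucosidase that degrades glycogen (5779 ± 361). The lowest levels were those of *Galc*, which degrades galactosylceramide (316 ± 16.9), *Npc1*, a cholesterol transporter (184 ± 13.8), and *Gla*, the α-galactosidase A gene (128 ± 6.24). The first 3 genes of the order did not overlap with the next gene in any WT library, whereas 16 of the 30 neighboring pairs did, among them *Gaa* and *Hexa* as well as every pair from *Glb1* to *Smpd1*.

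Most of these genes differed little between genotypes, and those that did differ were higher in *Irf1-/-* HSCs. *Ctsh*, which encodes the aminopeptidase cathepsin H, and *Gm2a*, which encodes the GM2 activator protein, rose to 163% and 149% of the WT mean, respectively. No gene of the 31 was called lower. A gene was called when limma, fitted to log2(normalized count + 1), gave an adjusted *P* under 0.05 together with a log2 fold change beyond 0.58 in either direction. The 17404 genes whose normalized counts averaged 10 or more were tested, and all 31 genes were among them. Because these are bulk samples, a difference in the share of cells that express a gene and a difference in its RNA per cell cannot be told apart.

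Thus 2 of the 31 genes were called higher, where 0.96% of all tested genes were called higher, and 0 were called lower, where 0.954% were. Without the threshold on the fold change, these counts were again 2 and 0, against 1.73% higher and 1.49% lower among all tested genes. At an unadjusted *P* under 0.05 in limma, 7 of the 31 were higher and 0 lower, where 1459 and 1404 of all 17404 genes were, and edgeR and DESeq2 also gave 0 lower at an adjusted *P* under 0.05. All 3 *Irf1-/-* libraries were above all 3 WT libraries for 8 genes (25.8%; 10.6% of all tested genes), and they were below for 1 gene, *Scarb2* (9.27% of all tested genes). The groups overlapped for the other 22. The median log2 fold change of the 31 genes was 0.10, beside −0.0028 for all tested genes, and 21 were positive and 10 negative, where 49.6% of all tested genes were positive. It was 0.05 without WT replicate 4 and 0.06 without *Irf1-/-* replicate 3. The fold change of 20 genes lay between −0.15 and 0.15, and for 26 the whole 95% interval lay within −0.58 and 0.58. Summed over the 31 genes, normalized counts were 244635, 273168 and 256017 in *Irf1-/-* and 241239, 249535 and 229815 in WT libraries, so the ranges of these sums overlapped.

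**Figure D1:**
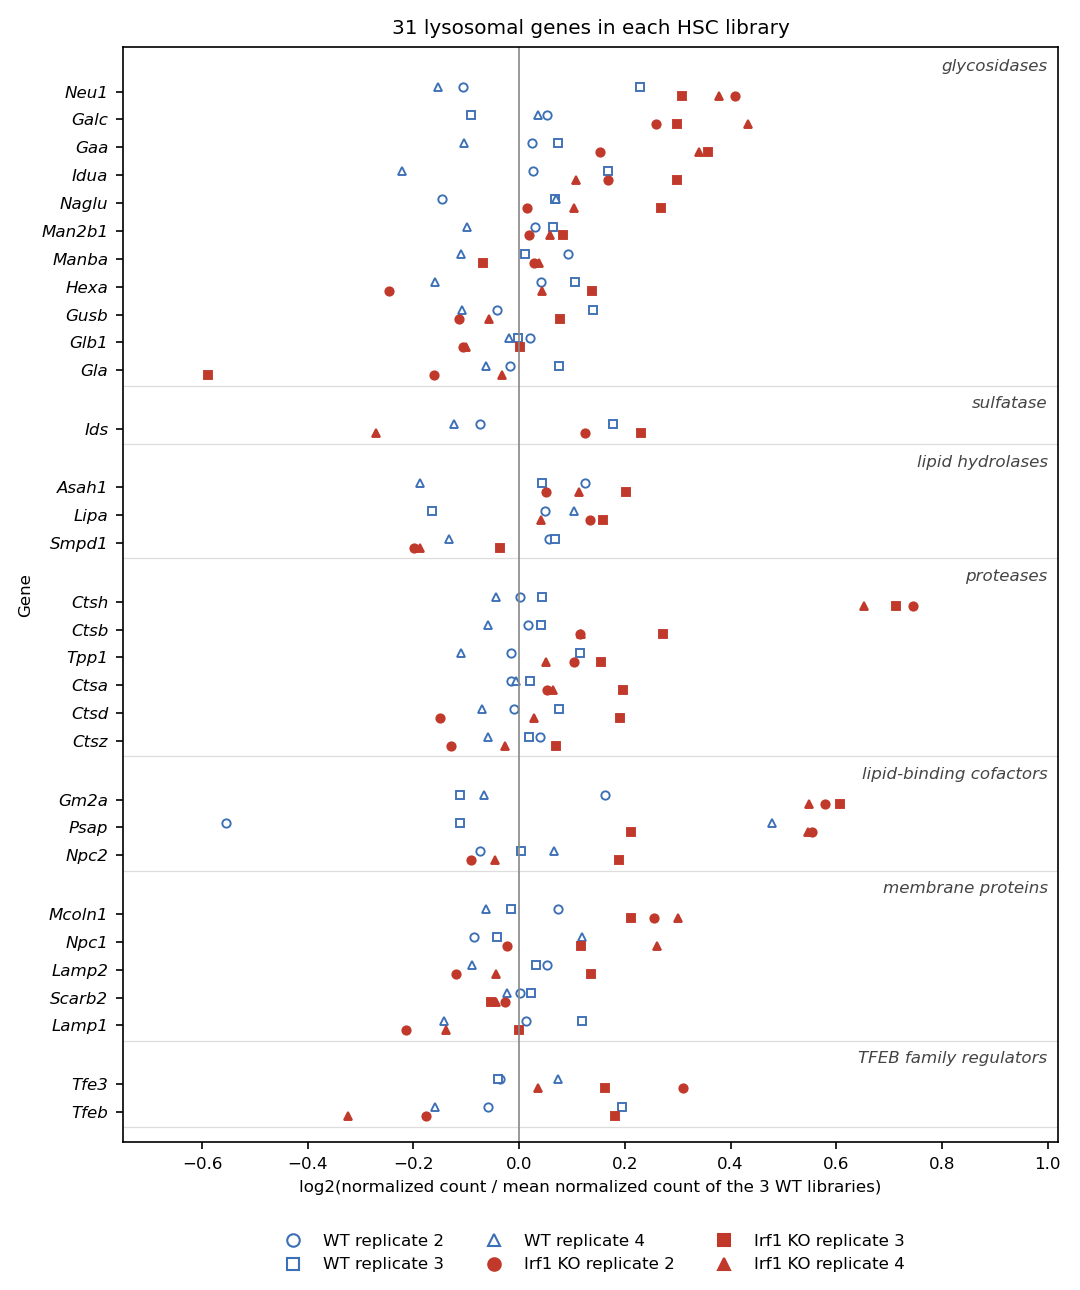
Each of the 31 genes in each of the 6 libraries, as the log2 ratio of its normalized count to the WT mean (WT, open blue symbols; *Irf1-/-*, filled red symbols; circle, square and triangle are replicates 2, 3 and 4), grouped by role and ordered by fold change. *Ctsh* and *Gm2a* are the genes whose red symbols lie farthest to the right of all blue ones, and 22 genes overlap.

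The libraries also differed within a genotype. *Irf1-/-* replicate 3 held the highest value of its genotype for 21 of the 31 genes and WT replicate 3 for 17, whereas *Irf1-/-* replicate 2 held the lowest for 17 and WT replicate 4 for 22. The median deviation of the 31 genes from their mean over all libraries was −0.01, 0.13 and 0.02 on the log2 scale in *Irf1-/-* and −0.05, 0.03 and −0.09 in WT libraries.

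Among the 6 proteases, 1 was called higher and 0 lower, where 0.96% and 0.954% of all tested genes were. All *Irf1-/-* libraries were above WT for 3 of the 6, beside 10.6% of all tested genes. *Ctsh* had normalized counts of 1469, 1436 and 1378 in *Irf1-/-* and of 877, 903 and 849.9 in WT libraries. Each genotype held a narrow range and the ranges were far apart, and the log2 fold change was 0.70 (SE 0.113, adjusted *P* = 0.00361, limma). Without the intensity trend in limma, *Ctsh* did not pass (adjusted *P* = 0.0608). The most abundant protease, *Ctsd*, had normalized counts of 31249, 39556.5 and 35314 in *Irf1-/-* and of 34432, 36527 and 32982 in WT libraries. Here the *Irf1-/-* libraries enclosed the WT libraries (log2 fold change 0.02, 95% interval −0.19 to 0.24). *Ctsb*, the endopeptidase cathepsin B (0.17, adjusted *P* = 0.366, limma), and *Ctsa*, the carboxypeptidase that protects neuraminidase and β-galactosidase (0.10, adjusted *P* = 0.611, limma, or 0.06 without *Irf1-/-* replicate 3), had all 3 *Irf1-/-* libraries above WT without passing the test, although *Ctsb* passed after quantile normalization (0.24, adjusted *P* = 0.0237, limma). *Tpp1*, a tripeptidyl peptidase (0.11, with 0.05 without WT replicate 4 and 0.17 without WT replicate 3), and *Ctsz* (−0.03) overlapped between genotypes. The difference in *Ctsh* thus was not shared in size by the other cathepsins of the list, although differences between the genes' fold changes were not tested.

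The lipid-binding cofactors, small proteins that present lipids to hydrolases or carry them, had a median log2 fold change of 0.50, which with 3 genes is the value of *Psap* alone, a gene that overlapped between genotypes. *Gm2a* lifts ganglioside GM2 out of membranes for β-hexosaminidase A. It had normalized counts of 12689, 12935 and 12432 in *Irf1-/-* and of 9507, 7865 and 8118 in WT libraries. All *Irf1-/-* libraries were above WT, and the WT libraries varied more (0.583 on the log2 scale, SE 0.091, adjusted *P* = 0.00283, limma). The fold change sat just above the threshold of 0.58. It fell just below it, with the adjusted *P* still under 0.05, in edgeR (0.5795, adjusted *P* = 0.00298), in DESeq2 (0.578, adjusted *P* = 3.56e-07), after median centring (0.55) and without *Irf1-/-* replicate 3 (0.57), WT replicate 3 (0.53) or WT replicate 4 (0.55). Without the intensity trend in limma, *Gm2a* did not pass (adjusted *P* = 0.164).

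*Psap* encodes prosaposin, the precursor of the saposins that activate sphingolipid hydrolases. It had normalized counts of 9028, 7127 and 8981 in *Irf1-/-* and of 4189, 5690.0 and 8574 in WT libraries. WT replicate 4 reached the *Irf1-/-* range while the other WT libraries lay below it, and the WT coefficient of variation of 36.2% was the highest of the 31 genes. With all libraries, the difference was 0.50 (SE 0.189, adjusted *P* = 0.190, limma). Without WT replicate 4 it was 0.77 (adjusted *P* = 0.00725, limma) and the gene was called, whereas without WT replicate 2 it was 0.25 (adjusted *P* = 0.589, limma). WT replicate 4 is the library with the neutrophil transcripts named above, and the 10 neutrophil genes summed to 14331 there, against 6664 and 5212 in WT replicates 2 and 3 and 8154, 8345 and 10830.5 in *Irf1-/-* libraries. In all libraries but WT replicate 4, most of the sum was *Prtn3*. This gene had 7608, 7801 and 9879 in *Irf1-/-* and 6255, 4841 and 6445 in WT libraries and was thus not high in WT replicate 4. There the other neutrophil genes together exceeded it. The part of these genes in the *Psap* level was not tested. The remaining cofactor, the cholesterol carrier gene *Npc2*, overlapped between genotypes (0.02).

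**Figure D2:**
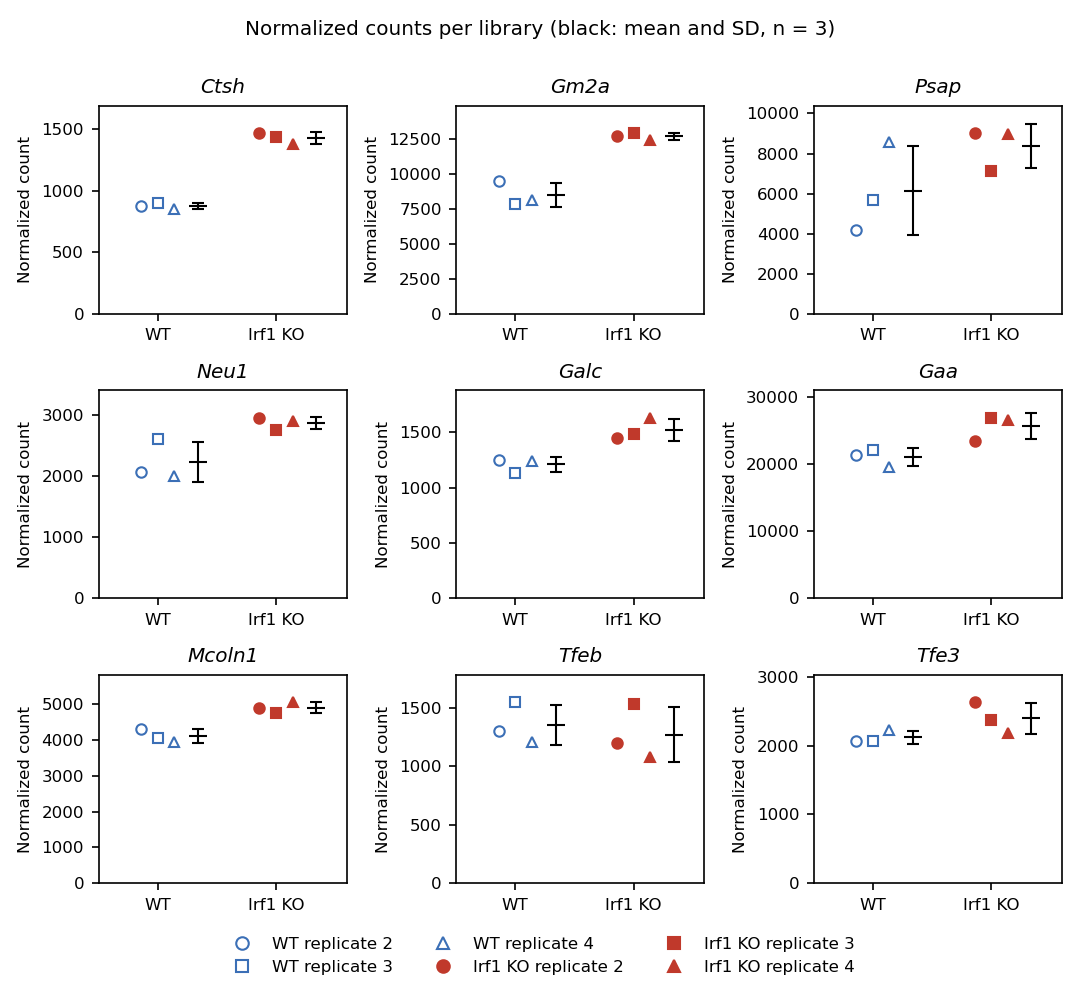
Normalized counts per library of 9 genes in WT (open blue symbols) and *Irf1-/-* HSCs (filled red symbols), with axes starting at 0 and the mean and SD of 3 libraries in black; circle, square and triangle are replicates 2, 3 and 4. *Ctsh*, *Gm2a*, *Neu1*, *Galc*, *Gaa* and *Mcoln1* do not overlap between genotypes, whereas *Psap*, *Tfeb* and *Tfe3* do.

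Where 0.96% of all tested genes were called higher and 0.954% lower, no glycosidase was called. All *Irf1-/-* libraries were above WT for 3 of the 11, beside 10.6% of all tested genes. *Neu1*, which encodes the neuraminidase that removes sialic acids, showed the largest difference of this role. Its normalized counts were 2966, 2768 and 2904 in *Irf1-/-* and 2076, 2619 and 2011 in WT libraries. WT replicate 3 was close to the *Irf1-/-* libraries and the other WT libraries were well below them (0.37, SE 0.112, adjusted *P* = 0.0928, limma). Without WT replicate 3 the adjusted *P* of *Neu1* passed the threshold of 0.05 in limma, as it did after quantile normalization and in DESeq2. For *Galc*, normalized counts were 1448, 1487 and 1633 in *Irf1-/-* and 1253, 1135 and 1239 in WT libraries. These groups did not overlap, and the difference did not pass the test (0.33, SE 0.112, adjusted *P* = 0.138, limma).

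*Gaa* was the glycosidase with the highest normalized counts, which were 23356, 26897 and 26565 in *Irf1-/-* and 21365, 22083 and 19537.5 in WT libraries. Again all *Irf1-/-* values were above WT and the adjusted *P* was above 0.05 in limma (0.29, SE 0.091, adjusted *P* = 0.117), but it was under 0.05 after quantile normalization and in DESeq2. The other 8 glycosidases overlapped between genotypes and had log2 fold changes from −0.26 to 0.20. *Gla* was at the lower end, mainly through *Irf1-/-* replicate 3 (normalized count 269.6, against 362 and 397 in replicates 2 and 4 and 388 to 427 in WT), and its log2 fold change was −0.095 without that library. *Idua*, the α-L-iduronidase that degrades heparan and dermatan sulfate, was at the upper end, with 0.20, or 0.094 without WT replicate 4. *Hexa* (−0.02), which encodes the α subunit of the enzyme that the GM2 activator serves, *Glb1* (−0.07, or −0.10 without *Irf1-/-* replicate 3), the β-galactosidase gene, and *Gusb* (−0.03), the β-glucuronidase gene, were near 0. So were *Manba* (0.0012), *Man2b1* (0.06, with 0.0064 without WT replicate 4 and 0.09 without WT replicate 3) and *Naglu* (0.13, or 0.06 without *Irf1-/-* replicate 3 or WT replicate 2), which encode β-mannosidase, α-mannosidase and α-N-acetylglucosaminidase. The median of the 11 glycosidases was 0.06, and 0.0064 without WT replicate 4.

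The sulfatase and the lipid hydrolases overlapped between genotypes in every case. *Ids*, the iduronate sulfatase gene, had normalized counts of 1871, 2013 and 1421 in *Irf1-/-* and of 1629, 1941 and 1575 in WT libraries (log2 fold change 0.03). *Asah1*, the acid ceramidase gene and the most abundant of the lipid hydrolases, had 6309.9, 7000.3 and 6587 in *Irf1-/-* and 6642, 6277 and 5348 in WT libraries (0.13). *Smpd1*, which encodes acid sphingomyelinase, had 4230.0, 4739.8 and 4265 in *Irf1-/-* and 5052, 5093 and 4428 in WT libraries (−0.14). Neither difference passed the test (adjusted *P* = 0.593 and 0.533, limma), and that of *Asah1* became 0.04 when WT replicate 4 was left out and 0.19 when WT replicate 2 was. *Lipa*, the gene of the acid lipase that hydrolyzes cholesteryl esters, had a log2 fold change of 0.12, or 0.036 without WT replicate 3. Over all 21 hydrolases the median was 0.10, and it was 0.04 without WT replicate 4 and 0.06 without *Irf1-/-* replicate 3.

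The 5 membrane proteins had a median log2 fold change of −0.0082, which became 0.05 after quantile normalization and −0.05 without WT replicate 4. Where 0.96% of all tested genes were called higher and 0.954% lower, none of these 5 was called. *Lamp1*, the most abundant of them, had normalized counts of 17477, 20265 and 18417 in *Irf1-/-* and of 20435, 22000.3 and 18359.5 in WT libraries, which overlapped (log2 fold change −0.11, 95% interval −0.32 to 0.09). Leaving out WT replicate 3 gave −0.05 for *Lamp1*, and leaving out WT replicate 4 gave −0.18. *Mcoln1*, which encodes the calcium channel of the lysosomal membrane that acts upstream of TFEB, had 4903, 4756 and 5064 in *Irf1-/-* and 4324, 4066 and 3936 in WT libraries. All *Irf1-/-* libraries were above WT, without passing the test (0.26, SE 0.086, adjusted *P* = 0.137, limma), although *Mcoln1* passed after quantile normalization. *Lamp2*, whose isoforms take part in autophagosome fusion and chaperone-mediated autophagy, was nearly the same in both genotypes (−0.0082), with a 95% interval of −0.20 to 0.19. *Scarb2*, the receptor that carries glucocerebrosidase to lysosomes, had the *Irf1-/-* libraries below WT by a small margin (−0.04), and *Npc1* overlapped (0.12, with 0.05 without *Irf1-/-* replicate 4 and 0.19 without *Irf1-/-* replicate 2).

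Both regulators overlapped between genotypes. *Tfeb* had normalized counts of 1196, 1533 and 1081 in *Irf1-/-* and of 1299, 1547 and 1210.3 in WT libraries. Replicate 3 was the highest in each genotype, and the log2 fold change was −0.10 (SE 0.145, adjusted *P* = 0.821, limma; 95% interval −0.41 to 0.21). *Tfe3*, its paralog, had 2632, 2374 and 2176 in *Irf1-/-* and 2069.6, 2062 and 2233 in WT libraries. WT replicate 4 lay above the lowest *Irf1-/-* library (0.17, SE 0.104, adjusted *P* = 0.472, limma; 95% interval −0.05 to 0.39), and without *Irf1-/-* replicate 2 the fold change was 0.10. Transcript levels do not report where these proteins are in the cell, which is how their activity is mainly controlled.

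Further genes of the pathway were examined as lists. Of 37 other lysosomal hydrolases tested, 1 was higher and 0 lower at an adjusted *P* under 0.05 in limma (1.73% and 1.49% of all tested genes). In all *Irf1-/-* libraries, 7 lay above WT and 3 below (10.6% and 9.27% of all tested genes), with a median log2 fold change of 0.11. The gene that passed was *Ctsf*, which encodes the cysteine protease cathepsin F. It had normalized counts of 6324, 7661 and 7639 in *Irf1-/-* and of 4754, 5368 and 5053 in WT libraries (0.51, adjusted *P* = 0.0118, limma). It no longer passed without *Irf1-/-* replicate 4 (adjusted *P* = 0.0768) or WT replicate 2 (adjusted *P* = 0.0612), or without the intensity trend in limma (adjusted *P* = 0.237). The largest difference of this list was in the other direction. *Ctss*, the cathepsin S gene, had 334, 341 and 233 in *Irf1-/-* and 443, 424 and 508 in WT libraries, all lower without passing the test (−0.61, adjusted *P* = 0.120, limma). *Rnaset2a* was listed at 0 in every library and *Rnaset2b*, its near-identical copy, had all *Irf1-/-* libraries below WT (−0.32). The division of reads between these copies is uncertain.

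Of 35 other lysosomal membrane proteins tested, 1 was called higher and 0 lower (0.96% and 0.954% of all tested genes), 9 lay above and 1 below WT in all *Irf1-/-* libraries (10.6% and 9.27%), and the median log2 fold change was 0.09. The called gene was *Laptm4b*, which encodes a late endosomal and lysosomal membrane protein that binds ceramide. It had normalized counts of 3047, 3609 and 3164 in *Irf1-/-* and of 1893, 1806.5 and 2131 in WT libraries. The groups were well separated (0.75, SE 0.106, adjusted *P* = 0.00137, limma), and the gene kept an adjusted *P* under 0.05 when any single library was left out, but not without the intensity trend in limma (adjusted *P* = 0.119). *Mcoln3*, a paralog of *Mcoln1* with low counts, had a larger difference that did not pass (1.00, adjusted *P* = 0.0887, limma).

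None of the 17 tested V-ATPase subunits, which acidify the lysosome, had an adjusted *P* under 0.05 in limma, edgeR or DESeq2 or an unadjusted *P* under 0.05 in limma. Their groups overlapped in every case, and their median log2 fold change was −0.04, or −0.07 without WT replicate 4. Among 16 genes of lysosomal enzyme sorting and activation (median −0.03, or −0.09 without WT replicate 4), 0 had an adjusted *P* under 0.05 in limma or edgeR, 1 did in DESeq2, and 2 had an unadjusted *P* under 0.05 in limma, as 16.5% of all tested genes did. These 2 were *Igf2r*, the gene of a receptor for mannose 6-phosphate (0.44, adjusted *P* = 0.125, limma), and *Gnptab*, a phosphotransferase subunit gene (0.22, adjusted *P* = 0.249, limma), higher with overlap between genotypes. The only gene of this list without overlap was *Cln8*, an export receptor of lysosomal enzymes (−0.11). Its *Irf1-/-* libraries were all below WT, as they were for 9.27% of all tested genes. Among 23 genes of MiT/TFE control and mTORC1 signaling (median −0.04, or −0.07 without WT replicate 4), 0 had an adjusted *P* under 0.05 in limma, edgeR or DESeq2, and 2 had an unadjusted *P* under 0.05 in limma, 1 in each direction, again beside 16.5% of all tested genes. All *Irf1-/-* libraries lay above WT for 3 of the 23 and below for 4 (10.6% and 9.27% of all tested genes). The largest differences without overlap were those of *Mitf* (−0.29, adjusted *P* = 0.572, limma) and *Tfec* (0.26, adjusted *P* = 0.249, limma), which encode the other members of the TFEB family.

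Of 32 autophagy genes (median 0.07, or 0.05 without WT replicate 4), 3 passed the adjusted *P* of 0.05 in limma, all higher in *Irf1-/-* HSCs, where 1.73% of all tested genes were higher and 1.49% lower, and none reached the threshold on the fold change. At an unadjusted *P* under 0.05 in limma, 4 were higher and 2 lower, where 1459 and 1404 of all 17404 genes were, the 2 being *Atg3* (−0.34, adjusted *P* = 0.174, limma) and *Uvrag* (−0.25, adjusted *P* = 0.203, limma). *Ulk1*, the kinase gene that starts autophagosome formation, had normalized counts of 7765, 6493 and 7619.7 in *Irf1-/-* and of 5588, 4824 and 6010.5 in WT libraries (0.42, adjusted *P* = 0.0457, limma). *Atg14*, a subunit gene of the autophagy-specific lipid kinase complex (0.41, adjusted *P* = 0.0326, limma), and *Atg2a*, a lipid transfer protein gene (0.35, adjusted *P* = 0.036, limma), likewise had all *Irf1-/-* libraries above WT. None of these 3 calls held without *Irf1-/-* replicate 2, *Irf1-/-* replicate 4, WT replicate 2 or WT replicate 3, where adjusted *P* values in limma were between 0.0746 (*Atg14* without *Irf1-/-* replicate 2) and 0.196 (*Ulk1* without *Irf1-/-* replicate 4). *Atg14* also did not pass without *Irf1-/-* replicate 3 (adjusted *P* = 0.0878, limma). Without the intensity trend in limma none of the 3 passed (0.247 for *Atg14* and *Atg2a*, 0.322 for *Ulk1*), and *Ulk1* also did not pass without the filter on low genes (0.056), after quantile normalization (0.0605) or after median centring (0.0582).

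Of the 31 genes, 8 are in the list of pre-granulocyte-macrophage progenitor genes that the study used (*Ctsb*, *Ctsh*, *Ctsz*, *Glb1*, *Gusb*, *Lamp2*, *Manba* and *Npc2*). Their median log2 fold change was −0.0035, beside 0.12 for the 23 genes that are not in the list. All *Irf1-/-* libraries were above WT for 2 of the 8 and for 6 of the 23, as they were for 10.6% of all tested genes. Of these 8 genes, *Ctsh* was the one with a call, and *Gm2a* is outside the list.

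Promoters from 250 bases before to 50 bases after the transcription start were available from RefSeq (GRCm38.p6) for 27 of the 31 genes, and were not used for *Asah1*, *Ctsb*, *Ctsh* and *Npc1*. The core letters CACGTG, read the same on either strand, were in promoters of 8 of the 27 genes (29.6%; *Gla*, *Gaa*, *Glb1*, *Naglu*, *Ctsa*, *Ctsd*, *Lamp1* and *Mcoln1*), beside 8.09% of all 27025 genes and 7.15% of all 32851 promoters. The longer letters TCACGTGA, which contain that core and form the center of the element bound by TFEB, were in promoters of 4 of the 27 genes (14.8%), beside 1.12% of all genes and 0.974% of all promoters. Windows around this longer motif are shown for 3 of these genes, *Ctsd*, *Mcoln1* and *Gla*, of which none passed the test. Capitals mark the motif, and each sequence is written 5′ to 3′ on the strand of its gene (*Ctsd*, chr7:142387908-142387937, minus strand; *Mcoln1*, chr8:3500462-3500491, plus strand; *Gla*, chrX:134601215-134601244, minus strand), upstream of the annotated start.
Ctsd: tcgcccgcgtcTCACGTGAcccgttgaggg
Mcoln1: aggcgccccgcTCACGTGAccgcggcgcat
Gla: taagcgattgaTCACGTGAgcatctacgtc
The median log2 fold change was 0.06 for the 4 genes with the longer motif and 0.03 for the matched genes without it. The core of the interferon-stimulated response element, written as GAAA, any 2 bases and GAAA on either strand, was in the promoter of 1 of the 27 genes, *Lamp1*, beside 3.99% of all genes and 3.44% of all promoters. For *Gm2a*, these letters and both E-box motifs were not in the window.

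Markers of other blood cells were compared as well. The study defined HSCs as lineage-negative cells with Sca1, cKit and CD150 but without CD48, and its lineage antibodies included CD11b and Gr-1, a gate that should remove mature myeloid cells. Of 16 macrophage and monocyte genes, 0 passed at an adjusted *P* under 0.05 in limma or edgeR, 1 did in DESeq2, and 1 had an unadjusted *P* under 0.05 in limma. Their summed counts were 30808, 35865.0 and 33079 in *Irf1-/-* and 26895, 35297 and 30614 in WT libraries, of which *Lyz2*, the lysozyme gene, made up 84.1%. The sums overlapped between genotypes, and none of the genes was at 0 in all libraries. *Cd14*, which encodes a receptor for lipopolysaccharide, was at 111, 137 and 162 in *Irf1-/-* and 73.2, 48.5 and 59.2 in WT libraries, the only gene of the list without overlap (1.17, adjusted *P* = 0.0738, limma). All *Irf1-/-* libraries were above WT for 10.6% of all tested genes. *Csf1r*, the receptor gene that defines the macrophage lineage, was at 328, 251 and 124.6 in *Irf1-/-* and 195, 385 and 302 in WT libraries. Of 9 neutrophil and granulocyte progenitor genes tested, 1 passed in limma, *Prtn3*, the proteinase 3 gene and the most abundant of the list (0.53, adjusted *P* = 0.0334, limma), with means of 8429 in *Irf1-/-* and 5847 in WT HSCs, and 2 passed without WT replicate 4. Genes in these counts were higher in *Irf1-/-* HSCs. Without WT replicate 4, 445 of all 17404 genes passed as higher in limma. *Ly6g*, a surface marker of neutrophils, was under a mean of 10. It had 46.3 in WT replicate 4, 1.07 in *Irf1-/-* replicate 2 and 0 in all other libraries. The part of these cells in *Ctsh* and *Gm2a* was not tested, and without WT replicate 4 the log2 fold changes were 0.68 for *Ctsh* and 0.55 for *Gm2a*.

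Among the other marker lists, the most abundant genes were *Cd34* for multipotent progenitors, *Flt3* for dendritic cells, *Cd79b* for B cells, *Nkg7* for T and NK cells, *Epor* for erythroid cells and *Itga2b* for megakaryocytes. The α- and β-globin genes *Hba-a1*, *Hba-a2*, *Hbb-bs* and *Hbb-bt* were listed at 0 in every library, which is uncertain because they share reads with near-identical copies. Erythroid and megakaryocyte genes were lower in *Irf1-/-* HSCs at an adjusted *P* under 0.05 (limma) for 2 of 4 and 3 of 7 tested genes, where 1.49% of all tested genes were lower. In both edgeR and DESeq2 these counts were 1 and 3, where 266 of 17404 tested genes (edgeR) and 604 of 13094 tested genes (DESeq2) were lower. At an adjusted *P* under 0.05 in limma, 1 of 5 multipotent progenitor genes and 1 of 7 dendritic cell genes, *Flt3* in both lists, were higher, and 2 of 12 HSC genes were higher and 1 lower. Of all tested genes, 1.73% were higher and 1.49% lower. For B cell genes and for T and NK cell genes, 0 of 7 and 0 of 5 passed in limma or edgeR, 0 and 1 passed in DESeq2, and 0 and 1 had an unadjusted *P* under 0.05 in limma, as 16.5% of all tested genes did. All 20 cell cycle genes had negative log2 fold changes (median −0.50). At an adjusted *P* under 0.05, 5 passed in limma, 7 in edgeR and 17 in DESeq2, all lower. Of all 17404 genes, 260 were lower in limma and 266 in edgeR, and of the 13094 genes tested in DESeq2, 604 were lower. Without WT replicate 4, limma gave 16 of the 20 and 547 of all genes. Their median deviation from the mean of all libraries was −0.15, −0.07 and −0.60 on the log2 scale in *Irf1-/-* and 0.31, 0.43 and −0.02 in WT libraries. The part of the cell cycle in the differences described here was not tested.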

How the data were processed

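The authors amplified cDNA of sorted HSCs with a SMART-Seq v4 kit, used Trim Galore! for trimming, HISAT2 for alignment and Htseq-count for counting; the build mm39 is given in the submitters' processing notes. Whether counting used the strand is not stated. What the authors deposited is a signal, each gene's reads divided by a size factor per library. Whole reads could be recovered for 100% of values (tolerance 0.01).

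Labels gave the genotype of each sample. Genotypes were compared with limma 3.58.1 (R 4.3.3; intensity trend, Benjamini-Hochberg adjustment over all tested genes) on log2(normalized count + 1), which understates changes of low genes. edgeR 4.0.16 called 165 genes higher and 162 lower on recovered reads, and DESeq2 1.42.0 called 295 and 209. Further alternatives varied the pseudocount, the low-value filter and the trend, used quantile normalization or median centring, added a block for the replicate number, loosened the threshold on adjusted *P*, or left out each library. On simulated data with 200 genes changed by a log2 fold change of 1 among 17404, limma recovered 99% and called 13 unchanged genes.

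The 31 genes and all lists were chosen with earlier results of these data known. Genes given in full are those with an adjusted *P* under 0.05, those without overlap that differed by more than 0.3 on the log2 scale, the regulators, and in each role the most abundant gene and the one with the largest fold change. From other lysosomal and autophagy lists, genes with an adjusted *P* under 0.05 or else those with the largest changes without overlap were named, and from marker lists the most abundant and those at 0. *Psap*, *Gla*, *Ctss*, *Mcoln3*, *Rnaset2b*, *Igf2r*, *Gnptab*, *Atg3*, *Uvrag*, *Cd14*, *Csf1r*, *Mpo*, *Elane*, *Camp*, *S100a8*, *S100a9*, *Ngp* and *Ltf* were named only once their values had been seen. Transcript lengths came from GENCODE vM1 by symbol (94.1% of tested genes), for 2 of the 31 genes through an older symbol. Exact permutation tests used scipy 1.17.1, and figures matplotlib 3.10.9.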

Additional observations from a re-analysis of the deposited data

How the results depend on the processing

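Of 496 fits of single genes under 16 alternatives, 455 kept direction and side of the threshold, 9 newly passed an adjusted *P* of 0.05, 2 no longer passed and 30 changed sign. *Ctsh* and *Gm2a* kept an adjusted *P* under 0.05 except in limma without the trend (0.0608 and 0.164). The number of genes called higher, 2, became 0 without the trend and 1 with median centring, edgeR or DESeq2, and was between 1 and 2 with a library left out. The number with an adjusted *P* under 0.05, also 2, became 0 without the trend, 6 with quantile normalization and 4 in DESeq2, and was between 2 and 3 with a library left out; 0 were called lower under any alternative. Signs changed in 9 genes, whose log2 fold changes were at most 0.098 in size. With quantile normalization *Hexa* was at 0.0291, *Gusb* at 0.0204, *Ctsz* at 0.0212 and *Lamp2* at 0.0480, with median centring *Manba* was at −0.0298, *Ctsd* at −0.00654 and *Npc2* at −0.0122, and in DESeq2 *Manba* was at −0.000764. With a library left out, values ran from −0.0975 to 0.0949 for *Hexa*, −0.0813 to 0.0440 for *Gusb*, −0.0528 to 0.0490 for *Manba*, −0.0666 to 0.185 for *Ids*, −0.0594 to 0.111 for *Ctsd*, −0.0772 to 0.0220 for *Ctsz*, −0.0667 to 0.0731 for *Npc2*, −0.0806 to 0.0466 for *Lamp2* and −0.242 to 0.009995 for *Tfeb*. The cause was not tested. Over all tested genes, 167 were called higher and 166 lower, which became 7 and 33 without the trend, 295 higher in DESeq2, and with a library left out 104 higher (*Irf1-/-* replicate 2), 83 higher (*Irf1-/-* replicate 4), 102 and 105 (WT replicate 3), and 305 and 265 (WT replicate 4). Deviations from the genotype means correlated at −0.09, 0.25 and 0.15 between libraries of the same number (2, 3 and 4). Between libraries of different numbers the correlations ran from −0.33 to 0.25. Whether the numbers mark a shared batch was not tested. With the replicate block, 2 genes were called higher and 3 had an adjusted *P* under 0.05, *Gaa* being the addition. Over all tested genes, 561 had an adjusted *P* under 0.05 in the main fit of limma and 1075 with the block. With 3 mice per genotype, 95% intervals of single genes are wide, and for genes such as *Scarb2* the spread within a genotype can be no larger than counting error, so lack of overlap says little there.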
